A study of Mus musculus with 4 samples.

Results

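The MiT/TFE group comprises 10 genes out of the 30142 that had a row with exactly 1 gene symbol on the arrays. They are the transcription factor genes Mitf, Tfeb, Tfe3 and Tfec, the folliculin genes Flcn, Fnip1 and Fnip2, and the target genes Rragd, Mcoln3 and Gpnmb. The genes were listed by name, and the targets were chosen on their measured signals, which were strongly raised in Glut1-deficient cells relative to wild type. Their values are therefore given as a description, with no test. Each gene had 1 row on the arrays. Mitf, Tfec and Gpnmb lie on mouse chromosome 6, Flcn and Fnip1 on chromosome 11, Fnip2 and Mcoln3 on chromosome 3, Rragd on chromosome 4, Tfeb on chromosome 17 and Tfe3 on chromosome X.

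Expression was measured in primary keratinocytes, the main cells of the epidermis, taken from 1-week-old C57BL/6J mice. The Glut1-deficient (KO) cells came from mice lacking Glut1, the glucose transporter encoded by Slc2a1, in keratinocytes, and the wild-type (WT) cells from mice with the intact gene. There were 4 mice of each genotype, and all cells shared the background strain and a low-calcium serum-free medium (0.05 mM CaCl2) with insulin, EGF, hydrocortisone and pituitary extract. After 3 days the cells were reseeded at 2000000 on collagen and taken into Trizol on the next day. Plates were pooled at random in pairs within a genotype, so that each genotype had 2 arrays (Affymetrix MTA-1_0) of 2 plates each. The driver of the deletion and the deleted exons were not known here. Nothing ties an array to a named mouse, so p-values measure the spread between pools, which may be partly technical, and precision is limited by having 2 arrays a genotype.

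MiT/TFE proteins are basic helix-loop-helix leucine zipper factors that switch on genes of lysosomes and autophagy. When nutrients are plentiful, mTORC1 phosphorylates them on the lysosome surface and they are held in the cytoplasm. Folliculin, with a Fnip partner, acts on the Rag GTPases RagC and RagD in this step. RagD is also encoded by a target gene of the same factors, which forms a feedback loop. The factors bind E-box sequences, which are called CLEAR elements in lysosome genes, and MITF is the master regulator of melanocytes, the pigment cells of the epidermis.

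The 4 arrays were alike in scale, with medians between 4.19 and 4.24 on the log2 scale and correlations across rows of 0.997 within KO, 0.998 within WT and 0.989 to 0.992 between genotypes. Slc2a1 gave 12.09 and 12.01 on the KO arrays, against 13.26 and 13.40 on the WT arrays, a difference of -1.28. The signal is a summary of the probes along Slc2a1 and is no measure of remaining function. The keratinocyte identity of the cultures was checked with Krt5 and Krt14, keratins of basal keratinocytes. Krt5 gave 18.30 and 17.98 on the KO arrays and 18.61 and 18.69 on the WT arrays. Krt14 gave 17.16 and 16.97 on the KO arrays and 17.40 and 17.60 on the WT arrays. Krt15, a further basal keratin, gave 4.81 and 4.75 on the KO arrays and 4.89 and 4.87 on the WT arrays. These Krt15 values lie near the background floor given below. Of the 7 basal markers, 1 fell in limma (Col17a1, a hemidesmosome collagen, picked out after its values were seen), 6 did not pass and 0 rose. That call was 14.3% of the list, near the 13.9% that passed among rows of at least median signal. Both KO arrays lay below both WT arrays for 6 of the 7 and above them for 1. Among all genes, the groups did not overlap for 49.7%, in either direction. At an unadjusted p under 0.05, 5 were lower and 0 higher. In the same fit, 6720 of all 30604 rows had an unadjusted p under 0.05, in either direction. In a fit of rows of at least median signal, 5496 of 15302 did.

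Promoters of the members were examined for the letters that the factors are known to bind. The RefSeq promoter table for GRCm38.p6 holds 250 bases before and 50 bases after an annotated start, and all 10 members had at least 1 entry. The letters searched, on both strands, were the E-box core CACGTG, the CLEAR-type flanked E-box TCACGTGA (which contains the core) and the flanked M-box TCATGTGA (reverse complement TCACATGA). The M-box core CATGTG was added later and lies inside TCATGTGA. Among all 32851 promoter entries, 7.15% held CACGTG, 0.974% TCACGTGA, 0.986% TCATGTGA and 14.2% CATGTG. Of the 10 members, 1 held CACGTG, namely Fnip1, 75 bases before its start, and none held any of the other letters. A lack of a match says only that the letters are not in this window. The sequences below show the promoter with the match, those of the 2 most raised members, and that of Mcoln1, the lysosomal channel gene related to Mcoln3. Mcoln1 holds CACGTG 71 bases before its start and TCACGTGA 46 bases before it. Capitals mark the matches, and the window for Mcoln3 belongs to a single annotated start.
Fnip1 (chr11:54437929-54438228, plus strand): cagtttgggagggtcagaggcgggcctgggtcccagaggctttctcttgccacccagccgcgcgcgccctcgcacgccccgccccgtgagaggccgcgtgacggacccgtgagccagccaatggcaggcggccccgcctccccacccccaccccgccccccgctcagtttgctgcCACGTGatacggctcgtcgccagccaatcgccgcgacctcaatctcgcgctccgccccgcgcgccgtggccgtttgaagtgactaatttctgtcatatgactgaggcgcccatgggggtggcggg
Gpnmb (chr6:49036268-49036567, plus strand): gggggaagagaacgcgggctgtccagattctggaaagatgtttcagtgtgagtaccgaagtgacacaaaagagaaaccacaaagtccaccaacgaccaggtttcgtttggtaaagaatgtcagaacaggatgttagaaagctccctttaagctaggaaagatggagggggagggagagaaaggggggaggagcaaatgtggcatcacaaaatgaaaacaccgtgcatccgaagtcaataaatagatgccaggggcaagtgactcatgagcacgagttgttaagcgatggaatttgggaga
Mcoln3 (chr3:146121541-146121840, plus strand): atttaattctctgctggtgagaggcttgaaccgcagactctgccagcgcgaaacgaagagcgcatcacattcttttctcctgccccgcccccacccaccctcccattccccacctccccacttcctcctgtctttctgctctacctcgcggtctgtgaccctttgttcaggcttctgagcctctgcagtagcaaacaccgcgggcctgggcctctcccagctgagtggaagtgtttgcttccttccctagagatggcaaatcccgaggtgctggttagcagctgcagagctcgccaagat
Mcoln1 (chr8:3500269-3500568, plus strand): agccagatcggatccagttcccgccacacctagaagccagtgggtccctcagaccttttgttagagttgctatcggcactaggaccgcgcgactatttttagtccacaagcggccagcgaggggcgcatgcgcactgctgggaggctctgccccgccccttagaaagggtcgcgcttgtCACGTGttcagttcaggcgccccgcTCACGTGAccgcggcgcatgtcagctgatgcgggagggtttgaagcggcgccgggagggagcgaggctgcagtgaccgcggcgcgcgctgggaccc

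Among the factors, the differences between genotypes were small beside those of the targets, which were chosen for their rise. Mitf, the melanocyte factor, gave 5.54 and 5.48 on the KO arrays, against 5.00 and 5.15 on the WT arrays, a difference of 0.43. Both KO arrays lay above both WT arrays. Tfe3, which is widely expressed, gave 6.02 and 5.86 on the KO arrays, against 5.82 and 5.92 on the WT arrays, a difference of 0.07, and the groups overlapped. Tfeb, the lysosomal master factor, gave 4.48 and 4.50 on the KO arrays and 4.52 and 4.57 on the WT arrays, and both KO arrays and 1 of the WT arrays were at or below the background floor. The floor, the 95th percentile of 23 background control rows, was 4.87 and 4.63 on the KO arrays and 4.36 and 4.70 on the WT arrays. Tfec, expressed mainly in macrophages, gave 3.84 and 3.88 on the KO arrays and 3.70 and 3.70 on the WT arrays, at or below the floor throughout, so no fold is given. These are transcript signals, and the factors' place in the cell was not measured. In a bulk sample, fewer cells of a type and less RNA per cell cannot be told apart.

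The folliculin genes were higher in KO cells. Flcn, the folliculin gene, gave 6.09 and 6.06 on the KO arrays, against 5.49 and 5.47 on the WT arrays. The difference was 0.59, a fold of 1.51, with little spread in either group. Fnip1, which encodes a folliculin-binding partner, gave 10.63 and 10.74 on the KO arrays, against 9.28 and 9.24 on the WT arrays, a difference of 1.42 (2.68-fold). Fnip2, its paralogue, gave 8.65 and 8.54 on the KO arrays, against 7.16 and 7.20 on the WT arrays, a difference of 1.42 (2.67-fold). Fnip1 and Fnip2 thus differed by nearly the same amount, and their KO arrays lay clear of their WT arrays.

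The target genes had the widest gaps, and they had been chosen for their raised signals. Rragd, the RagD GTPase, gave 8.67 and 8.64 on the KO arrays and 6.11 and 6.37 on the WT arrays, a difference of 2.42 (5.34-fold). The WT arrays differed from each other more than the KO arrays did. Mcoln3, which encodes the cation channel TRPML3 of endosomes and lysosomes, gave 8.60 and 8.10 on the KO arrays, against 4.90 and 4.98 on the WT arrays, which lie near the floor. Its difference was 3.40 (10.6-fold), and its KO arrays had the largest spread of any member, with a standard deviation of 0.35 (n = 2). Gpnmb, a transmembrane glycoprotein of melanosomes and phagocytic cells, gave 11.72 and 11.50 on the KO arrays and 6.74 and 6.48 on the WT arrays. Its difference was 5.00 (32.0-fold), and only 2 of the 30142 genes had a larger rise.

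**Figure D1:**
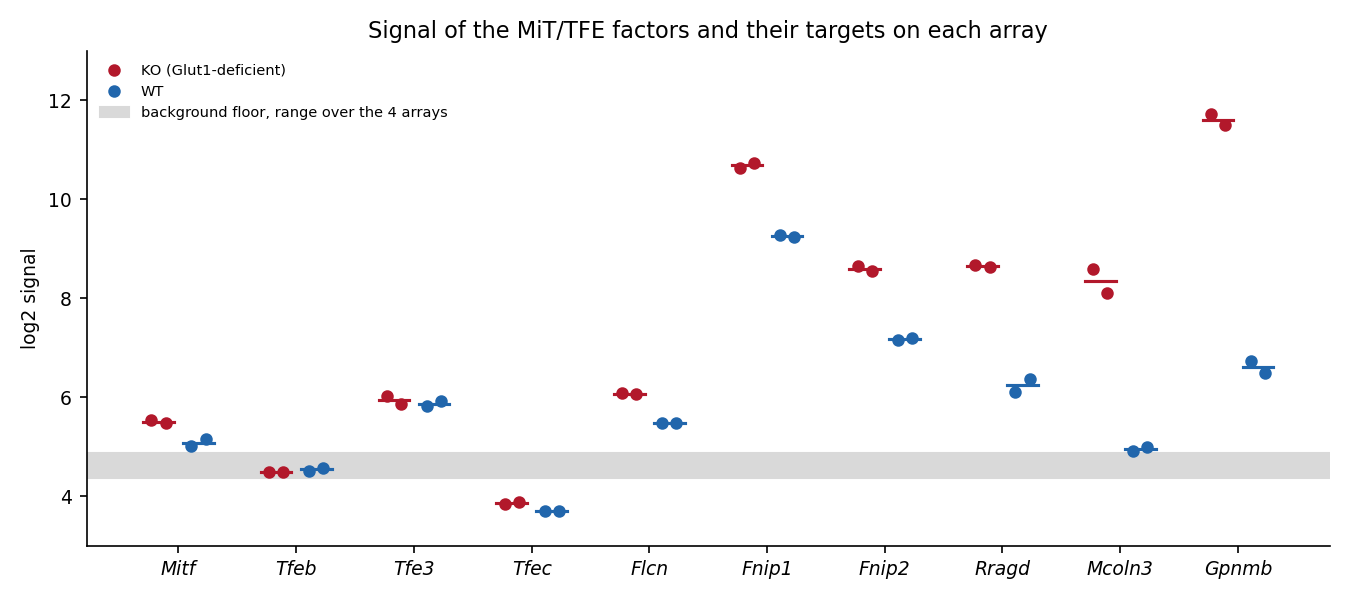
Log2 signal (y axis) of the 10 genes (x axis) on each array, KO in red left of WT in blue, with bars at the group means and the grey band for the range of the background floors. Gpnmb, Mcoln3 and Rragd, chosen for their raised signals, have the widest gaps, with KO arrays from 8.10 to 11.72. Tfeb, Tfec and Tfe3 lie close together between genotypes.

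Across the 10 genes the median difference was 1.00, against -0.01 over all genes. Ranked by difference from the highest rise among all genes, Gpnmb was at 3, Mcoln3 at 19, Rragd at 58, Fnip1 at 205, Fnip2 at 209, Flcn at 1457, Mitf at 2386, Tfec at 6555, Tfe3 at 10206 and Tfeb at 18064. Both KO arrays lay above both WT arrays for 8 of the 10, which was also so for 23.9% of all genes, and the groups did not overlap for 9 of the 10, as for 49.7% of all genes. In the fit across all rows, 6 of the 10 passed at an adjusted p under 0.05, Flcn, Fnip1, Fnip2, Rragd, Mcoln3 and Gpnmb. The same held for 7.22% of all rows, with 4.11% higher and 3.11% lower. Among rows of at least median mean signal, 13.9% passed, with 7.97% higher and 5.97% lower. Nothing is read from this median, these ranks or these counts for the members, since the same contrast helped to choose them.

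The values changed little with the processing. With quantile normalization repeated, with median centring, and with each array left out in turn, the difference ran from 4.87 to 5.13 for Gpnmb, from 3.15 to 3.65 for Mcoln3, from 2.29 to 2.54 for Rragd and from 0.57 to 0.61 for Flcn. Fnip1 ran from 1.37 to 1.48 and Fnip2 from 1.36 to 1.47. Mitf ran from 0.36 to 0.50, and Tfe3 from -0.01 to 0.15, with both signs.

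Rragd and Mcoln3 belong to families whose other members were compared in the same fit. Mcoln1 gave 8.00 and 7.71 on the KO arrays, against 6.38 and 6.53 on the WT arrays, and rose by 1.40 (SE 0.14, limma adjusted p = 0.0111). Its call was lost without KO replicate 1 (adjusted p = 0.0527) or without WT replicate 1 (adjusted p = 0.0501). Mcoln2, whose promoter window lies 28383 bases from that of Mcoln3 on chromosome 3, gave 3.59 and 3.60 on the KO arrays and 3.52 and 3.63 on the WT arrays. Its promoter holds CACGTG 72 bases before the start. All 4 of its values were at or below the floor, so the neighbour of Mcoln3 gave no signal above background in either genotype. Rragc, the RagC GTPase, rose by 0.91 (adjusted p = 0.0251), and its call was lost without KO replicate 1, WT replicate 1 or WT replicate 2, at adjusted p of 0.0857, 0.112 and 0.0825. Rraga, the RagA GTPase, gave 13.14 and 13.11 on the KO arrays and 12.78 and 12.76 on the WT arrays, a difference of 0.35 that did not pass (adjusted p = 0.0907). Rragb passed (adjusted p = 0.0483), but all 4 of its values were at or below the floor, so no fold is given.

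The factors are known to regulate lysosome genes of the CLEAR network. Of the 32 measured, 19 rose, 0 fell and 13 did not pass in limma. At an unadjusted p under 0.05, 27 were higher and 1 lower, against 6720 of all 30604 rows in either direction. In a fit of rows of at least median signal, 5496 of 15302 had such a p. The share that passed was 59.4%, against 13.9% of rows of at least median signal, and the median difference was 0.84, against -0.01 over all genes. Both KO arrays lay above both WT arrays for 28 of the 32, against 23.9% of all genes. Gaa, which encodes the acid alpha-glucosidase that breaks down lysosomal glycogen, gave 10.58 and 10.21 on the KO arrays, against 8.50 and 8.58 on the WT arrays, and rose by 1.85 (SE 0.15, limma adjusted p = 0.00752). Atp6v0b and Atp6v1h, subunits of the proton pump that acidifies lysosomes, rose by 1.40 and 1.42 (adjusted p = 0.00956 and 0.011). Hexa, a hexosaminidase subunit chosen here after its values were seen, gave 12.21 and 11.14 on the KO arrays and 8.56 and 8.68 on the WT arrays, a rise of 3.06 (adjusted p = 0.0151). Ctsz, a cathepsin, had the lowest difference, -0.50, and did not pass. The number called among these genes fell to 4 without KO replicate 1, to 2 without WT replicate 1 and to 6 without WT replicate 2.

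**Figure D2:**
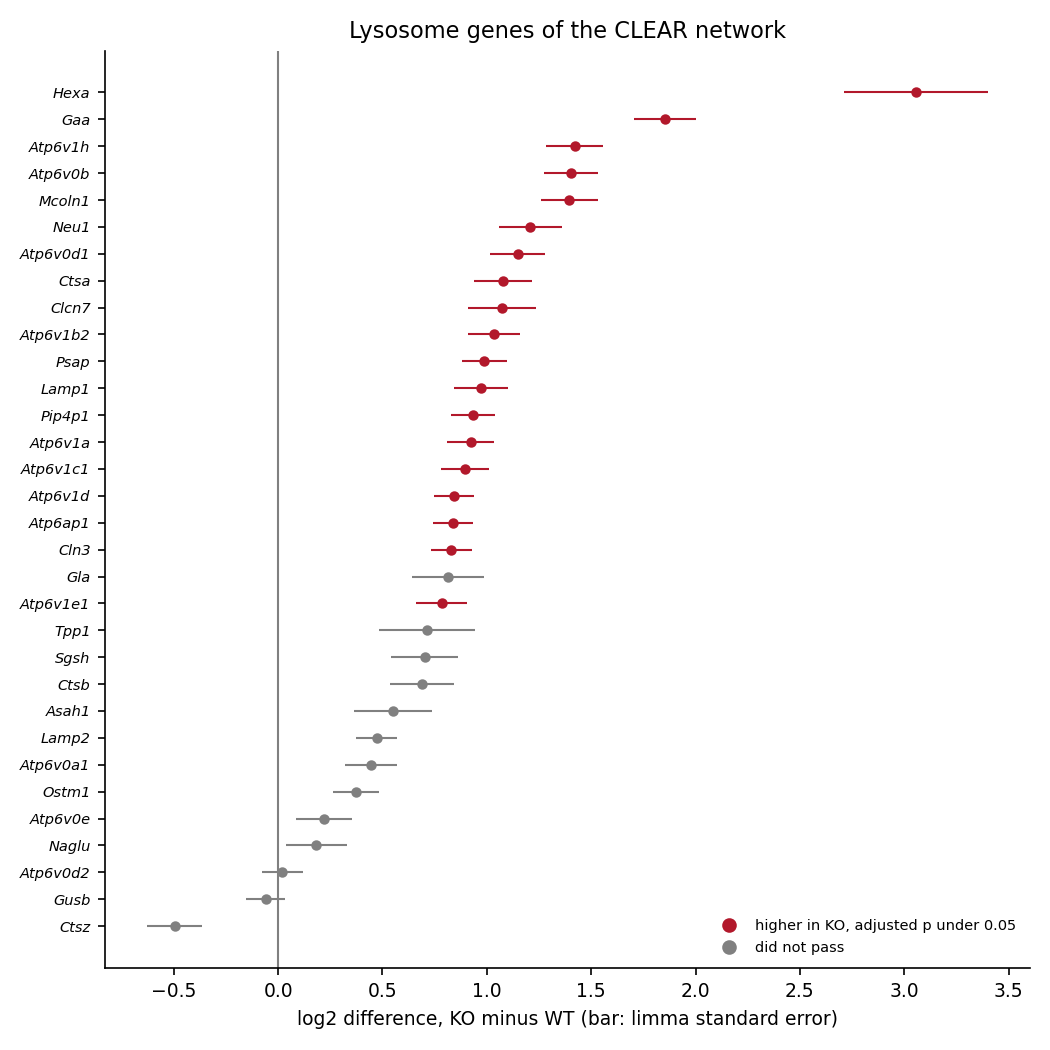
Log2 difference, KO minus WT (x axis), of the 32 measured CLEAR lysosome genes (y axis), with bars for the limma standard error; red points are the 19 that passed and grey points the 13 that did not. The 19 genes that passed all lie above 0, with Hexa highest at 3.06, and Ctsz is lowest at -0.50.

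The CLEAR letters were looked for in the promoters of these lysosome genes as well. Of the 26 with a promoter entry, 14 held CACGTG (53.8%) and 9 held TCACGTGA (34.6%), against 10.0% and 0% of the 10 members. The CLEAR network shares its name with the CLEAR elements, which are such E-boxes, so a high share among its genes is no separate result. Of the 14 with CACGTG, 10 rose, and of the 12 without it, 6 rose. Among 17 autophagy targets with a promoter entry, 0 of the 3 with CACGTG and 0 of the 2 with TCACGTGA rose, against 4 of the 14 and 4 of the 15 without the letters. The 7 genes with TCACGTGA that rose were Atp6v0d1, Atp6v1a, Clcn7, Cln3, Ctsa, Mcoln1 and Pip4p1 (listed as Tmem55b), and the 2 that did not pass were Atp6v0e and Gla. The windows below, shown so that the shared letters can be set against flanking bases that differ, hold 40 bases around the match in capitals. They include Atp6v0e as a gene with the letters and a difference of 0.22 that did not pass. Ctsa has a further match, which runs past the end of its window and is left in lower case there.
Atp6v0d1 (chr8:105566045-105566084, minus strand): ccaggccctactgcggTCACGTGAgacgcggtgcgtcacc
Atp6v1a (chr16:44139368-44139407, minus strand): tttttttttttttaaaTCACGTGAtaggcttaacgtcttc
Clcn7 (chr17:25133381-25133420, plus strand): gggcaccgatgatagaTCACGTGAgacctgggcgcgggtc
Cln3 (chr7:126583335-126583374, minus strand): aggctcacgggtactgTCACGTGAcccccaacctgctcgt
Ctsa (chr2:164833744-164833783, plus strand): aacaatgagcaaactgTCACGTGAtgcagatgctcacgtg
Pip4p1 (chr14:50930881-50930920, minus strand): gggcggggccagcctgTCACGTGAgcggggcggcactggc
Atp6v0e (chr17:26676382-26676421, plus strand): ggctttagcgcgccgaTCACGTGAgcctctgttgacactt

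In Atp6v0d1 the match began 4 bases before the start, in Ctsa 13, in Pip4p1 55, in Cln3 122 and in Atp6v1a 132 bases before it. In Clcn7 and Atp6v0e it began just after the start. The rises of these genes were 1.15 for Atp6v0d1 (a pump subunit), 1.08 for Ctsa (cathepsin A), 1.07 for Clcn7 (a chloride-proton exchanger), 0.93 for Pip4p1 (a lysosomal phosphatase), 0.92 for Atp6v1a (a pump subunit) and 0.83 for Cln3 (a lysosomal membrane protein). A match is a description, and binding was not measured.

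The same letters were counted across the 17085 genes with a promoter entry, of which 7.88% passed, 4.25% higher and 3.63% lower. Of 1558 genes with CACGTG, 8.41% rose and 2.89% fell, against 3.83% and 3.71% of genes without it. Of 244 genes with TCACGTGA, 11.9% rose and 2.05% fell, against 4.14% and 3.66% without it. The 29 that rose include the 7 lysosome genes named above, so these shares are not separate from that list. Of 178 genes with TCATGTGA, 7.30% rose and 2.25% fell, against 4.22% and 3.65% without it. Of genes with CATGTG, 4.08% rose, against 4.28% of those without it. Genes with CACGTG also had a higher median signal than those without it, 6.53 against 4.67, and those with TCACGTGA 7.86 against 4.78. Among the 8853 genes of at least median signal, 12.0% of those with CACGTG rose, against 7.42% of those without it, and 14.5% of those with TCACGTGA, against 7.81%. For TCATGTGA the shares were 14.5% and 7.90%, and for CATGTG they were 9.63% and 7.77%. No test of these differences in share was made. Without KO replicate 1, WT replicate 1 or WT replicate 2, the calls among genes with CACGTG were 29, 33 and 49 in place of 176, and without KO replicate 2 they were 100. Among genes with TCACGTGA they were 5, 6 and 10 in place of 34, and among those with TCATGTGA 3, 5 and 4 in place of 17.

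**Figure D3:**
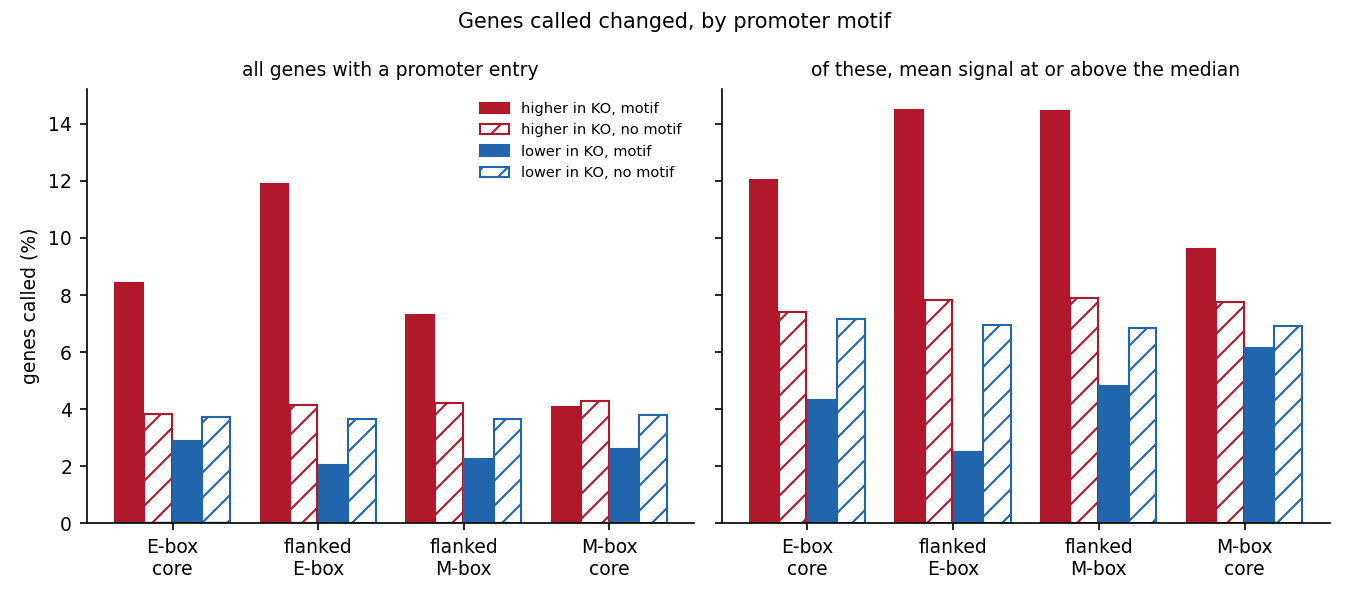
Share of genes called higher (red) or lower (blue) in KO cells (y axis, percent), with the motif (filled) and without it (hatched), for 4 motifs: E-box core CACGTG, flanked E-box TCACGTGA, flanked M-box TCATGTGA and M-box core CATGTG (x axis). The left panel holds all genes with a promoter entry and the right panel those of at least median signal; with the flanked E-box 11.9% rose in the left panel, against 4.14% without it.

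Of 20 measured autophagy genes known as targets of TFEB, 5 rose, 0 fell and 15 did not pass in limma, with a median difference of 0.22. Those that passed were 25% of the list, against 13.9% of rows of at least median signal. At an unadjusted p under 0.05, 8 were higher and 3 lower, against 6720 of all 30604 rows in either direction. In a fit of rows of at least median signal, 5496 of 15302 had such a p. Sqstm1, the autophagy receptor p62, gave 12.46 and 12.60 on the KO arrays, against 10.81 and 10.63 on the WT arrays, and rose by 1.81 (adjusted p = 0.00508). Gabarapl1, an Atg8 family protein, rose by 1.07, Vps11, a tethering subunit, by 1.21 and Vps8 by 0.82 (adjusted p = 0.0151, 0.0161 and 0.0226). The Vps8 call was lost whichever array was left out. Those of Gabarapl1 and Vps11 were lost without KO replicate 1 or WT replicate 1, and that of Gabarapl1 also without WT replicate 2. Map1lc3b, encoding LC3B, differed by 0.20 and Ulk1, the starting kinase, by -0.45, and neither passed. Without KO replicate 1, 1 of the 20 passed, without WT replicate 1 also 1, and without WT replicate 2, 2 did.

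Among 33 measured genes of the Rag, GATOR and mTORC1 machinery, 4 rose, 0 fell and 29 did not pass in limma (median 0.21). The list mixes parts of mTORC1 with its inhibitors, so the counts give no direction for mTORC1 activity. The share that passed was 12.1%, near the 13.9% of rows of at least median signal. At an unadjusted p under 0.05, 12 were higher and 4 lower. That threshold was met, in either direction, by 6720 of all 30604 rows. In a fit of rows of at least median signal, 5496 of 15302 met it. The 4 calls include Rragb, whose values all lie at or below the floor, and Rragc. The others were Deptor, an inhibitor of mTORC1, which rose by 1.31 (adjusted p = 0.0203), and Slc38a9, a lysosomal arginine sensor, by 0.74 (adjusted p = 0.0189). The Slc38a9 call was lost whichever array was left out, and the Deptor call without WT replicate 1 or WT replicate 2. Sesn2, a leucine sensor, gave 9.80 and 9.05 on the KO arrays and 8.29 and 8.23 on the WT arrays, a difference of 1.17 that did not pass (adjusted p = 0.0602). Mtor itself differed by 0.13, and did not pass (adjusted p = 0.606). The 4 calls fell to 1 without KO replicate 1 and to 0 without WT replicate 1 or WT replicate 2, in limma, where 9 genes each had an unadjusted p under 0.05.

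Regulators of the factors' place in the cell, such as kinases, phosphatases and 14-3-3 proteins, were measured for 16 genes. Of these, 1 rose, 2 fell and 13 did not pass (median -0.19). The calls made up 18.8% of the list, against 13.9% of rows of at least median signal. Ppp3ca, a catalytic subunit of calcineurin, which dephosphorylates TFEB, rose by 0.54 (adjusted p = 0.0337). Akt1 fell by 0.62 (adjusted p = 0.0276) and Ywhab, a 14-3-3 protein, fell by 0.50 (adjusted p = 0.0494). All 3 calls were lost with a replicate block, leaving 0 in limma with 6 genes at an unadjusted p under 0.05. Each of these 3 calls was also lost whichever array was left out, so a regulator called in such a fit is another gene.

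**Figure D4:**
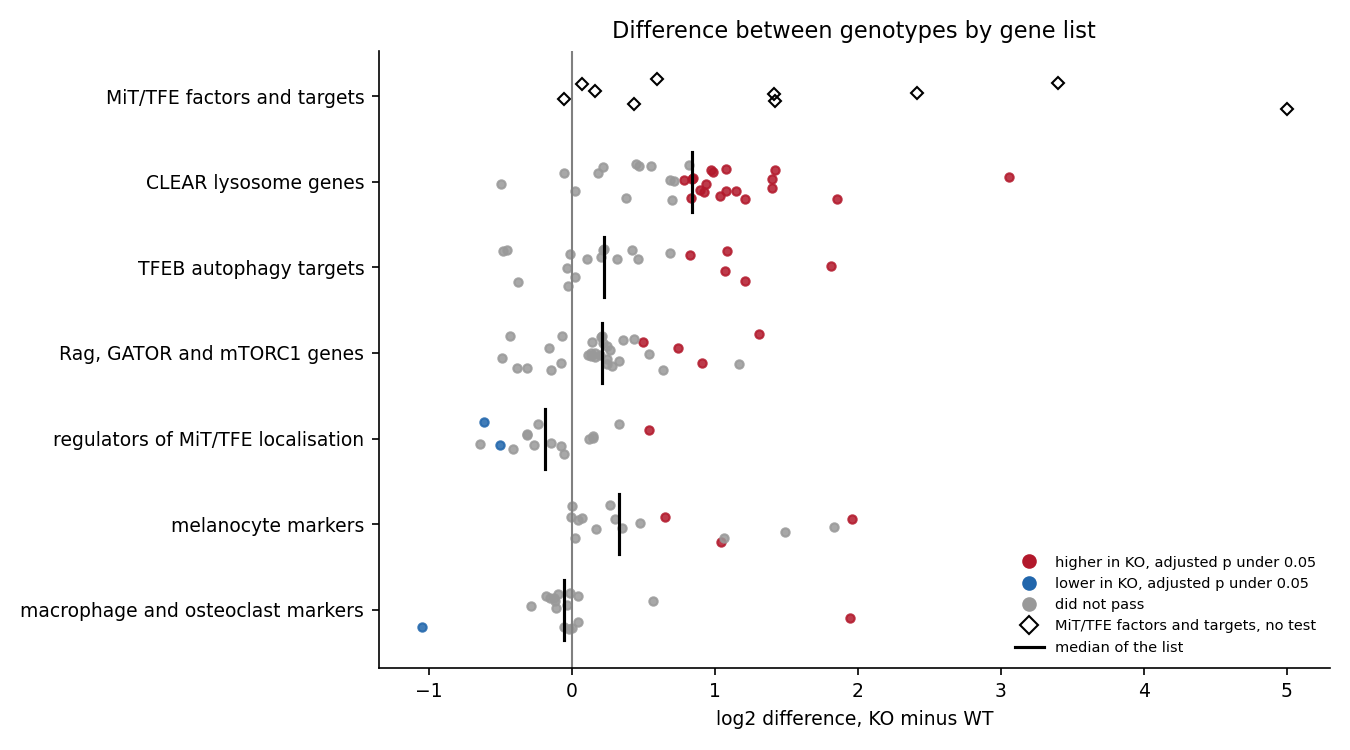
Log2 difference, KO minus WT (x axis), of each measured gene in 6 lists (y axis, with the 10 MiT/TFE genes as open diamonds on top); red and blue points passed at an adjusted p under 0.05, grey did not, and black bars are list medians. The median of the CLEAR lysosome genes is 0.84, against 0.22 for the autophagy targets, and the regulators have a median of -0.19.

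Melanocytes express Mitf and Gpnmb and can be present in skin cultures, so their markers were set beside the members. Of 16 measured melanocyte markers, 3 rose, 0 fell and 13 did not pass in limma, with a median of 0.33. The calls made up 18.8% of the list, against 7.22% of all rows and 13.9% of rows of at least median signal. At an unadjusted p under 0.05, 7 were higher and 0 lower, against 6720 of all 30604 rows in either direction. In a fit of rows of at least median signal, 5496 of 15302 had such a p. Without KO replicate 1, WT replicate 1 or WT replicate 2 there was 1 call each, and without KO replicate 2 there were 5. The log2 of their summed signal was 12.71 and 11.77 on the KO arrays, against 11.20 and 11.04 on the WT arrays. Tyrp1, a melanin enzyme, gave 12.11 and 10.80 on the KO arrays and 10.25 and 9.67 on the WT arrays and did not pass (adjusted p = 0.136). Dct, another melanin enzyme, gave 9.22 and 8.04 on the KO arrays, against 7.06 and 6.53 on the WT arrays, and did not pass (adjusted p = 0.067). Mlph, which links melanosomes to their motor, gave 7.59 and 7.45 on the KO arrays against 5.55 and 5.58 on the WT arrays, and rose by 1.96 (adjusted p = 0.0034). Pmel, the melanosome fibre protein related to Gpnmb, rose by 1.04 (adjusted p = 0.0341), a call lost without KO replicate 1, WT replicate 1 or WT replicate 2, at adjusted p of 0.0962, 0.0903 and 0.122. Ednrb, the endothelin receptor B, was at least 1.38-fold higher (adjusted p = 0.0372), with the WT arrays at or below the floor. The Ednrb call was lost whichever array was left out. Sox10, the neural crest factor, gave 4.68 and 4.66 on the KO arrays against 4.66 and 4.54 on the WT arrays, near the floor. Slc45a2, Gpr143 and Trpm1 were at or below the floor on every array.

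The gap between the KO arrays varied among the melanocyte markers, and for some it was like that of the members. KO replicate 1 was above KO replicate 2 by 1.32 for Tyrp1, 1.19 for Dct and 0.92 for Mlana. For the markers that passed, the gap was 0.44 for Pmel, 0.22 for Ednrb and 0.14 for Mlph, and for Sox10 it was 0.02. Among the members it was 0.50 for Mcoln3, 0.22 for Gpnmb, 0.06 for Mitf and 0.03 for Rragd. Without KO replicate 1, the difference was 4.89 for Gpnmb and 3.15 for Mcoln3. The part of melanocyte RNA in the differences of Gpnmb and Mitf was not tested.

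**Figure D5:**
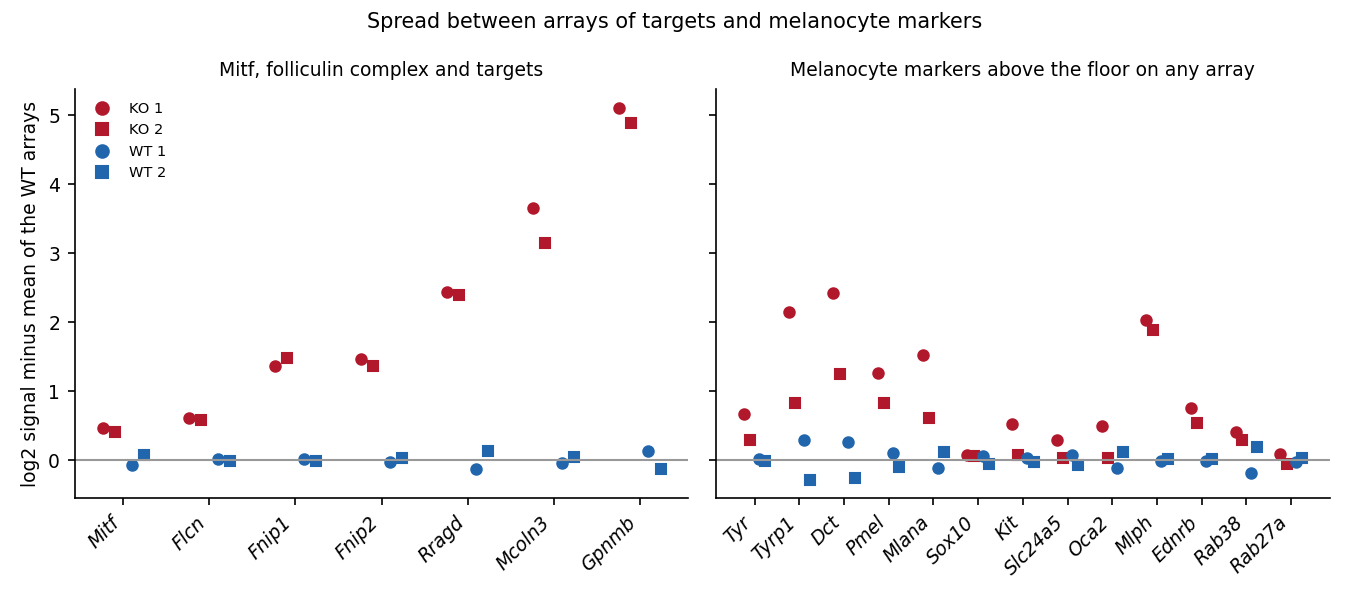
Log2 signal minus the mean of the WT arrays (y axis) for Mitf, the folliculin genes and targets (left) and 13 melanocyte markers above the floor on any array (right), with KO in red left of WT in blue and circles and squares for replicates 1 and 2. The gap between the KO arrays is 0.03 for Rragd, 0.22 for Gpnmb and 0.50 for Mcoln3 on the left, and on the right it runs from 0.02 for Sox10 through 0.22 for Ednrb to 1.32 for Tyrp1.

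Macrophages and osteoclasts also express Gpnmb and Tfec. Of 17 measured markers of these cells, 1 rose, 1 fell and 15 did not pass (median -0.06). The calls made up 11.8% of the list, against 7.22% of all rows. On every array 14 were at or below the floor, including Csf1r, Ptprc and Adgre1. The log2 of their summed signal was 9.93 and 10.57 on the KO arrays, against 9.41 and 9.61 on the WT arrays. Cd68 and Acp5 made up most of this sum on each array. Cd68, a lysosomal membrane protein, gave 9.30 and 10.20 on the KO arrays against 7.76 and 7.85 on the WT arrays and rose by 1.95 (adjusted p = 0.0267). Acp5, an acid phosphatase, gave 7.25 and 7.19 on the KO arrays against 8.07 and 8.47 on the WT arrays and fell by 1.05 (adjusted p = 0.0245). KO replicate 2 was the higher KO array for Cd68, and KO replicate 1 for Gpnmb. Leaving out KO replicate 1, KO replicate 2 or WT replicate 1 left 1 of the 2 calls, and without WT replicate 2 there were 0. All 7 mast cell markers were at or below the floor on every array. Fibroblast markers were measured for 6 genes, of which 1 rose, 0 fell and 5 did not pass in limma (median 0.30). That call was 16.7% of the list, against 7.22% of all rows, and 2 genes were at or below the floor on every array. All 6 had both KO arrays above both WT arrays, as did 23.9% of all genes. At an unadjusted p under 0.05, 3 were higher and 0 lower, against 6720 of all 30604 rows in either direction. The log2 of their summed signal was 7.39 and 7.63 on the KO arrays, against 6.95 and 6.95 on the WT arrays. Dcn, the matrix proteoglycan decorin, rose by at least 2.14-fold (adjusted p = 0.025), with its WT arrays at or below the floor. The part of fibroblast RNA in the members' differences was not tested.

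Genes with profiles most like those of the 5 members with a difference of at least 1 were listed by the Euclidean distance between centred log2 profiles over the 4 arrays. For Gpnmb these were Abca12, a lipid transporter, Slc43a3 and Ddit3, a stress transcription factor. For Mcoln3 they were Kdr, Ptprz1 and Efhd1, and for Rragd they were Ndrg1, Stc2 and Lpl. For Fnip1 they were Cox7a2l, Gstm1 and Uhrf1bp1l, and for Fnip2 they were Tmc7, Xpot and Duox1. The distances ran from 0.0486 for Tmc7 to 0.396 for Ddit3. With 4 arrays a short distance says little more than a like difference between genotypes: Abca12 differed by 4.80, Ndrg1 by 2.42 and Tmc7 by 1.41.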

How the data were processed

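The authors deposited gene-level log2 signals. The labels name SST-RMA, and the submitters' processing notes name RMA and Affymetrix Expression Console, with no version or build. RMA removes background, gives the arrays the same distribution and summarises probes. SST-RMA also transforms signals, which can change fold sizes. A shift shared by most genes would not be seen. Of 72688 rows, 30604 named 1 gene symbol in the platform table (2146 several, 33206 none, 6732 controls), and 22818 of these matched a RefSeq table of GRCm38.p6 by Entrez ID, which updated 827 symbols.

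The 30604 rows were compared with limma 3.58.1 in R 4.3.3 (lmFit and eBayes, two-sided, Benjamini-Hochberg over all rows, called at an adjusted p under 0.05), without a replicate block. Where a gene had several rows (355 genes), the brightest by mean of the 4 arrays was used. A fold is a bound where both arrays of a group were at or below the floor. Named genes were the members, Slc2a1, paralogues, up to 4 called genes with the smallest p of each list, and the 3 nearest profiles of each strongly changed member; genes chosen after their values were seen are named as such or illustrate a list. Members, lists and tests were chosen with earlier results of these data known. Listed genes without a row naming them alone were not analysed here (5 of the 37 CLEAR genes, 2 of the 35 Rag genes, 5 of the 21 regulators, 1 of the 18 macrophage markers and 1 of the 7 fibroblast markers). Alternatives changed the normalization, the rows tested, the variance moderation, the replicate block and the arrays used. Same-numbered arrays share only a number.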

Additional observations from a re-analysis of the deposited data

How the results depend on the processing

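With 2 arrays per genotype, calls rest on few degrees of freedom. Requantiling, median centring, the filter at the median signal and trended robust variances kept every count run under them within 1.5 times of that reported. With every row of the table tested in limma, calls were 74 in all rows, 1 in the melanocyte list and 0 in the other 5 lists. In those 5, 27 lysosome, 11 autophagy, 12 Rag, 8 regulator and 4 macrophage genes had an unadjusted p under 0.05. The same held for 9737 of all 72688 rows. With each array left out in turn, calls ranged from 314 (without KO replicate 1) to 1214 in all rows (389 without WT replicate 1, 566 without WT replicate 2), 2 to 20 for CLEAR lysosome genes, 1 to 4 for autophagy, 0 to 3 for Rag, 0 to 1 for regulators, 1 to 5 for melanocyte markers and 0 to 1 for macrophage markers. They ranged from 29 to 100 for genes with CACGTG, 5 to 24 with TCACGTGA and 3 to 14 with TCATGTGA. The cause of these changes was not tested beyond the smaller number of arrays and the larger number of rows. With a replicate block there were 1849 calls in all rows, 19 lysosome genes and 0 regulators. The deviations of same-numbered arrays correlated at -0.233, a sign that depends on the numbering of the pools. A crossed replicate block, chosen after seeing the data, gave 2039 calls, 21 lysosome genes and 1 regulator. Each member had 1 row, so another choice of row was not possible.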
